A study of Mus musculus with 4 samples.

Results

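The endothelin system was followed through 4 genes in cardiac endothelial cells of the mouse: the ligand gene Edn1, the converting enzyme gene Ece1 and the receptor genes Ednra and Ednrb. They were taken as the ligand, enzyme and receptors of 1 pathway, out of the 27998 genes counted in 4 single-cell RNA libraries. Endothelin-1 is a short peptide made mainly by endothelial cells. It is secreted after its precursor has been cut by furin-like proteases and then by the membrane enzyme ECE1. The A receptor (Ednra) is typical of smooth muscle, pericytes and mesenchyme and mediates vasoconstriction, while the B receptor (Ednrb) on endothelial cells is known for nitric oxide release and for clearing the peptide. In the embryo, endothelin signalling is also known for its role in the neural crest.

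The hearts came from C57Bl6J mice at embryonic day 12 (E12, 37 embryos) and 15 (E15, 48 embryos), at postnatal day 2 (P2, 21 pups) and from 8 week old adults (6 animals). CD31+/CD45- cells were sorted, frozen, thawed and loaded on 10x Genomics v2 chips, with dead cells depleted by a kit in the embryonic libraries and live cells sorted a further time in the postnatal ones. Each stage was 1 library of pooled animals with no replicate, so stage, library and preparation cannot be told apart and no test between stages was made. The libraries held 5732, 6062, 5884 and 4242 cells, with a median of 1241, 1013, 4531.5 and 1510 UMIs (unique molecular identifiers, 1 per captured transcript), and between 25 and 60 barcodes were shared by any 2 libraries. Levels are given as CPM, the UMIs of a gene summed over the cells of a class, per 1000000 of all their UMIs. Every range in parentheses is an exact 95% interval that covers counting error only, not variation between animals.

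Cells were placed in 4 classes by fixed marker counts. Endocardial cells, which line the heart chambers, had more UMIs of Npr3 and Tmem108 than of Fabp4, Cldn5 and Aplnr, while coronary cells had at least 2 UMIs of the latter genes and more of them than of the former. Artery cells had at least 3 UMIs of Cxcl12, Glul, Alpl and Nebl, and non-endothelial cells had none of Pecam1, Cdh5 and Egfl7. In the order E12, E15, P2 and adult, this gave 1716, 2115, 1082 and 75 endocardial cells and 113, 1254, 4596 and 4077 coronary cells. The artery class held 332, 69, 711 and 1875 cells, and the non-endothelial class 2995, 1867, 13 and 133. The classes can overlap, except endocardial with coronary, and 1456, 1546, 195 and 49 cells fell in none.

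The class names were checked with markers that the rule does not use. A sum of 6 endocardial markers (Nfatc1, Cytl1, Plvap, Hapln1, Vwf and Cgnl1) was higher in endocardial than in coronary cells at every stage, from 781 against 362 CPM at E12 to 5077 against 321 CPM in the adult. Of 6 capillary markers (Cd36, Rgcc, Gpihbp1, Car4, Lpl and Apln) the reverse held, with 144 against 32.3 CPM at E12 and 8255 against 402 CPM in the adult. The coronary class also held lymphatic transcripts: 4 markers (Prox1, Lyve1, Mmrn1 and Ccl21a) summed to 663, 442, 1002 and 83.9 CPM in it, above the capillary sum at E12, against 19.4, 44.6, 156 and 211 CPM in endocardial cells. The artery class did not match its name in the embryo: 257 of 332 cells at E12 and 41 of 69 at E15 held no Pecam1, Cdh5 or Egfl7 UMI, and its 5 mesenchyme markers (Col1a1, Col1a2, Col3a1, Pdgfra and Postn) summed to 3119 and 5829 CPM, against 214 and 395 CPM in coronary cells. It is called the Cxcl12 and Glul class at those stages. At P2 and in the adult, 679 of 711 and 1859 of 1875 artery cells were coronary cells as well. In the adult the class took in 44.2% of all cells and 45.6% of coronary cells. No arterial marker outside the rule is given for it here, so its name after birth stands for the rule alone. The non-endothelial class was mixed in the embryo, since 596 of its cells at E12 and 545 at E15 were also endocardial. These cells made up 34.7% and 25.8% of the endocardial class, so that share of it held no Pecam1, Cdh5 or Egfl7 UMI. At P2, 11 of the 13 non-endothelial cells were also coronary.

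The 4 genes lie apart in the genome (GRCm38, GENCODE M21). Edn1 (ENSMUSG00000021367) is on chromosome 13 from 42301476 to 42307990 on the plus strand, and Ece1 (ENSMUSG00000057530) on chromosome 4 from 137862237 to 137965229 on the plus strand. Ednra (ENSMUSG00000031616) is on chromosome 8 from 77663031 to 77724464 and Ednrb (ENSMUSG00000022122) on chromosome 14 from 103814625 to 103844402, both on the minus strand. Edn1, Ece1 and Ednra are each overlapped by 1 noncoding gene on the opposite strand, and Ednrb by none. RefSeq promoter windows (GRCm38.p6, 250 bases before and 50 after a start site) were found for all 4 members, with 4 start sites for Ece1. The windows of the ligand and of the B receptor are shown because these genes parted in finer sets of cells below. Both had their highest class level in P2 endocardial cells. Capitals mark matches, on either strand, to a GATA motif (AGATAA), an AP-1 motif (TGACTCA), the core ACGTG of the hypoxia response element or a FOXO motif (GTAAACA).
Edn1 promoter, chr13:42301226-42301525, plus strand: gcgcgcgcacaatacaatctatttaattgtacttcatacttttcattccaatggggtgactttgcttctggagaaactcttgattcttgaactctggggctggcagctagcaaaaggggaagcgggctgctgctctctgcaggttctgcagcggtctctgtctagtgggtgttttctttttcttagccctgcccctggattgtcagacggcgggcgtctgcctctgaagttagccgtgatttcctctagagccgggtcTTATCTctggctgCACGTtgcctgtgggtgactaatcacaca
Ednrb promoter, chr14:103843652-103843951, minus strand: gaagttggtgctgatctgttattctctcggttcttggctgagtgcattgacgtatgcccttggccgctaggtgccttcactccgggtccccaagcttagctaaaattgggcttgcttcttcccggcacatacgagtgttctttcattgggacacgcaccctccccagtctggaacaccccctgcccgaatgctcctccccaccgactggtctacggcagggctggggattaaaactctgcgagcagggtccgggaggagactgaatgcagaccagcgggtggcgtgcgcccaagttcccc
The Edn1 window held 1 match to the GATA motif, which 11.2% of 32851 promoter windows of the same length hold, and 1 to ACGTG, held by 19.6%. The AP-1 and FOXO motifs, present in 5.20% and 3.65% of all windows, had no match in it. Only the exact letters were searched for, so sites that vary from them were not counted. The third Ece1 window held ACGTG on both strands in 1 overlapping match, and the Ednrb and Ednra windows and the other Ece1 windows held none of the 4 motifs.

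Edn1, the ligand gene, was higher in endocardial than in coronary cells at E15 and P2, and the gap was widest at P2. In endocardial cells its level was 47.3 CPM (39.1–56.7) at E12, 83.0 CPM (72.0–95.2) at E15 and 111 CPM (102–120.4) at P2, with 47.9 CPM (23.0–88.1) in the adult. In coronary cells it was 49.4 CPM (25.5–86.3), 54.2 CPM (43.6–66.5), 36.5 CPM (34.1–39.0) and 39.2 CPM (34.8–44.1) in the same order. The endocardial level was thus highest at P2, while the coronary levels at P2 and in the adult had overlapping intervals. The endocardial over coronary ratio was 0.958 (0.528–1.91) at E12, 1.53 (1.19–1.98) at E15 and 3.04 (2.73–3.38) at P2, with 1.22 (0.579–2.28) in the adult, where only 10 endocardial UMIs were counted. At E12 and in the adult a difference was therefore not detectable at this depth. The geometric mean of the 4 ratios was 1.53 (1.22–1.92), and it rested on P2, without which it was 1.21 (0.899–1.64). The ratio passed 2-fold at P2 alone, where 10.4% of the 12536 genes with at least 20 UMIs were at least 2-fold higher in endocardial cells. In the order of the 16 stage and class levels, only the first, P2 endocardial cells, stood clear of the next, and every other neighbouring pair had overlapping intervals.

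**Figure D1:**
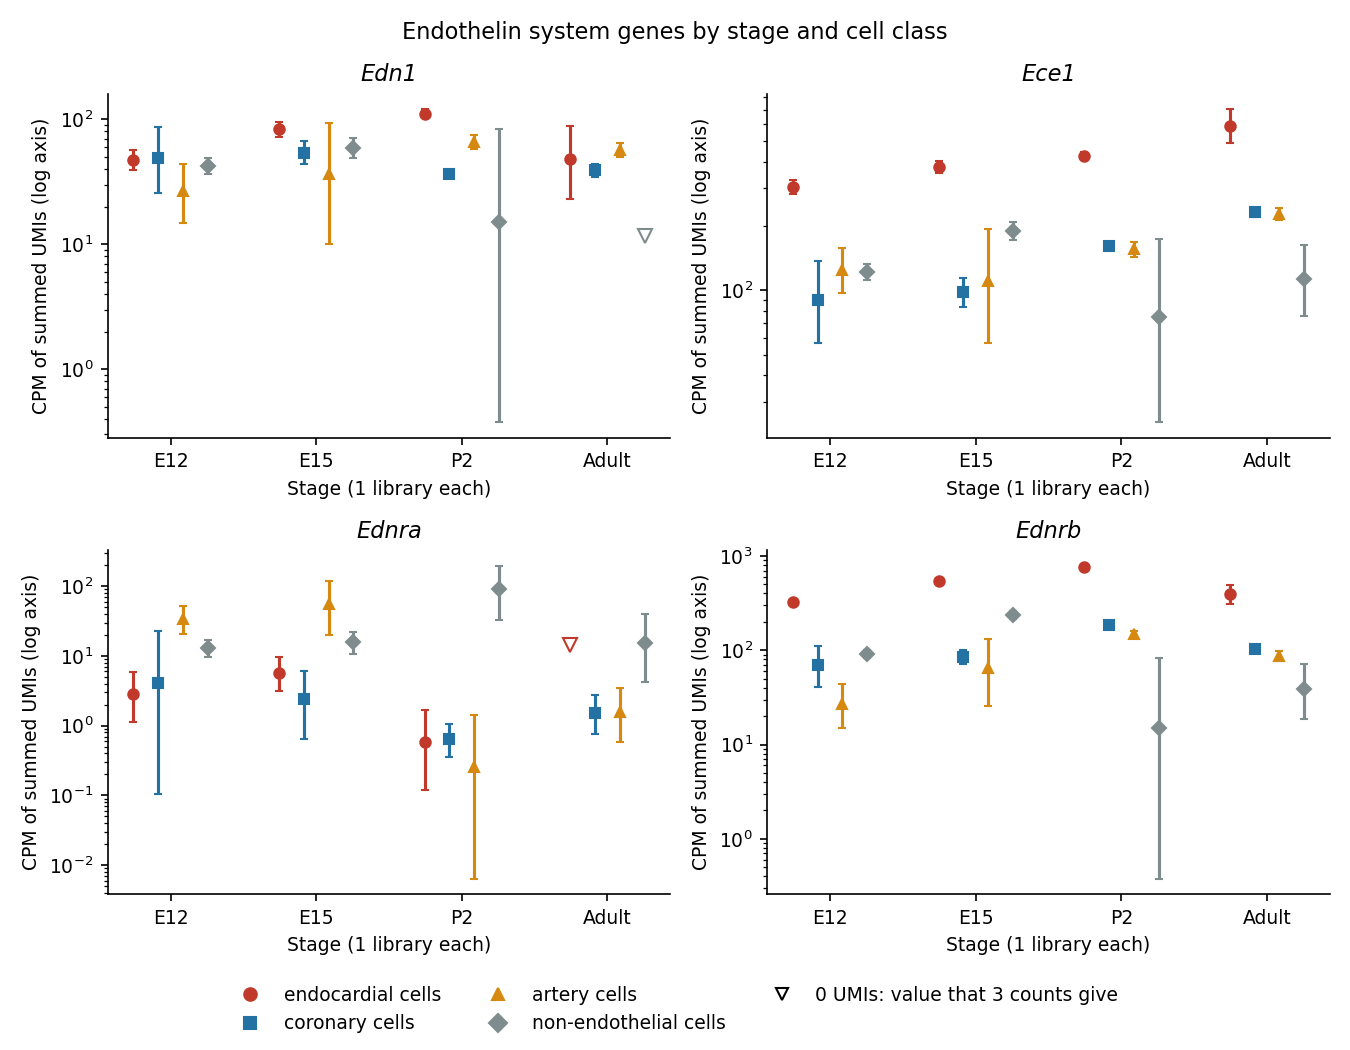
CPM of summed UMIs (log axis) of the 4 endothelin system genes at each stage, with 1 point per cell class, exact 95% Poisson intervals and open triangles where no UMI was counted. The endocardial points of Ece1 and Ednrb lie above the coronary points at each stage, from 321 against 70.0 CPM of Ednrb at E12 to 393 against 104 CPM in the adult, while the highest Ednra point is that of P2 non-endothelial cells with 89.6 CPM.

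Artery cells after birth held more Edn1 than the coronary class as a whole. Their level was 65.9 CPM (58.2–74.4) at P2 and 57.0 CPM (49.6–65.1) in the adult. The artery over coronary ratio was 1.81 (1.57–2.08) and 1.45 (1.21–1.74), short of 2-fold, a size that 1.88% of genes reached at P2 and 0.347% in the adult. Only 2.82% and 1.74% of the genes tested had a higher ratio than Edn1. Because most artery cells are coronary cells too, a comparison of artery cells within the coronary class with the coronary cells outside the artery class, both limited to cells with an endothelial UMI, was added. It gave 1.88 (1.60–2.19) at P2 and 3.02 (2.28–4.04) in the adult. In the same comparison Ednrb went the other way, at 0.707 (0.643–0.775) and 0.722 (0.623–0.837). Against the whole coronary class the P2 artery ratio of Ednrb was 0.797 (0.730–0.870). It turned to 1.13 (1.03–1.23) when cells with a UMI of Npr3 or Tmem108 were left out of the coronary side. Such cells were kept on the artery side.

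Edn1 was higher in cells with a large-artery marker set than in capillary cells. These cells held at least 3 UMIs of Fbln5 and Eln, genes of elastic fibres, and of Gkn3, an arterial marker, together with an endothelial UMI and under 3 UMIs of mural and mesenchyme markers. They numbered 101, 124, 796 and 304 from E12 to the adult, and the set was combined with the last 2 conditions after values of Edn1 had been seen. By the class rule 4, 10, 193 and 6 of these large-artery cells were endocardial, 12, 32, 568 and 295 coronary and 4, 4, 181 and 223 artery. The arterial connexin gene Gja4, which the set does not use, read 569, 584, 352 and 265 CPM in them, against 19.7, 97.5, 30.7 and 27.2 CPM in capillary cells, that is coronary cells with an endothelial UMI outside the artery class and without the set. Edn1 read 254 CPM at E12, 714 CPM at E15 and 137 CPM at P2, with 156 CPM in the adult in the large-artery cells. Capillary cells, which had no limit on mural and mesenchyme UMIs, held 59.0, 37.0, 12.2 and 12.6 CPM. The ratio was 4.31 (2.13–9.27), 19.3 (13.6–27.7), 11.2 (9.53–13.3) and 12.4 (8.56–18.2), so the intervals lay above 1 at all 4 stages. At E12 only 12 Edn1 UMIs stood behind the capillary value.

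At E15 these 124 of 6062 cells held 93 of the 606 Edn1 UMIs of the library, and 54 of them had at least 1 UMI. No single cell carried the E15 level, since it was 687 CPM without the cell with the most Edn1 UMIs, and at the other stages that removal left 212, 133 and 144 CPM. The median depth was 978, 926, 4793 and 2294.5 UMIs in large-artery cells and 2150.5, 1227, 4353.5 and 1262.5 in capillary cells. The smooth muscle actin gene Acta2 was above its capillary level in the embryo, where it read 158 CPM at E12 and 84.5 CPM at E15 in large-artery cells, against 4.91 and 4.27 CPM in capillary cells, and its part in the result was not tested. Myh11, a gene of mature smooth muscle, had no UMI in large-artery cells at E12, E15 and P2. It had none in capillary cells at these stages either, so it does not tell the sets apart there.

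For Ednrb the large-artery cells differed between stages. Its large-artery over capillary ratio was 0.713 (0.227–1.94) at E12 and 0.885 (0.414–1.68) at E15, both from few UMIs, and 0.352 (0.239–0.502) in the adult. It was above 1 at P2, 1.76 (1.65–1.89), and there 193 of the 796 large-artery cells were endocardial by the class rule. Ece1 was higher in large-artery cells after birth, with ratios of 2.41 (2.24–2.59) at P2 and 1.40 (1.20–1.63) in the adult. Capillary cells after birth combined low Edn1 with Ednrb at 172 and 129 CPM, while large-artery cells held 137 and 156 CPM of Edn1 with 304 and 45.2 CPM of Ednrb.

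**Figure D2:**
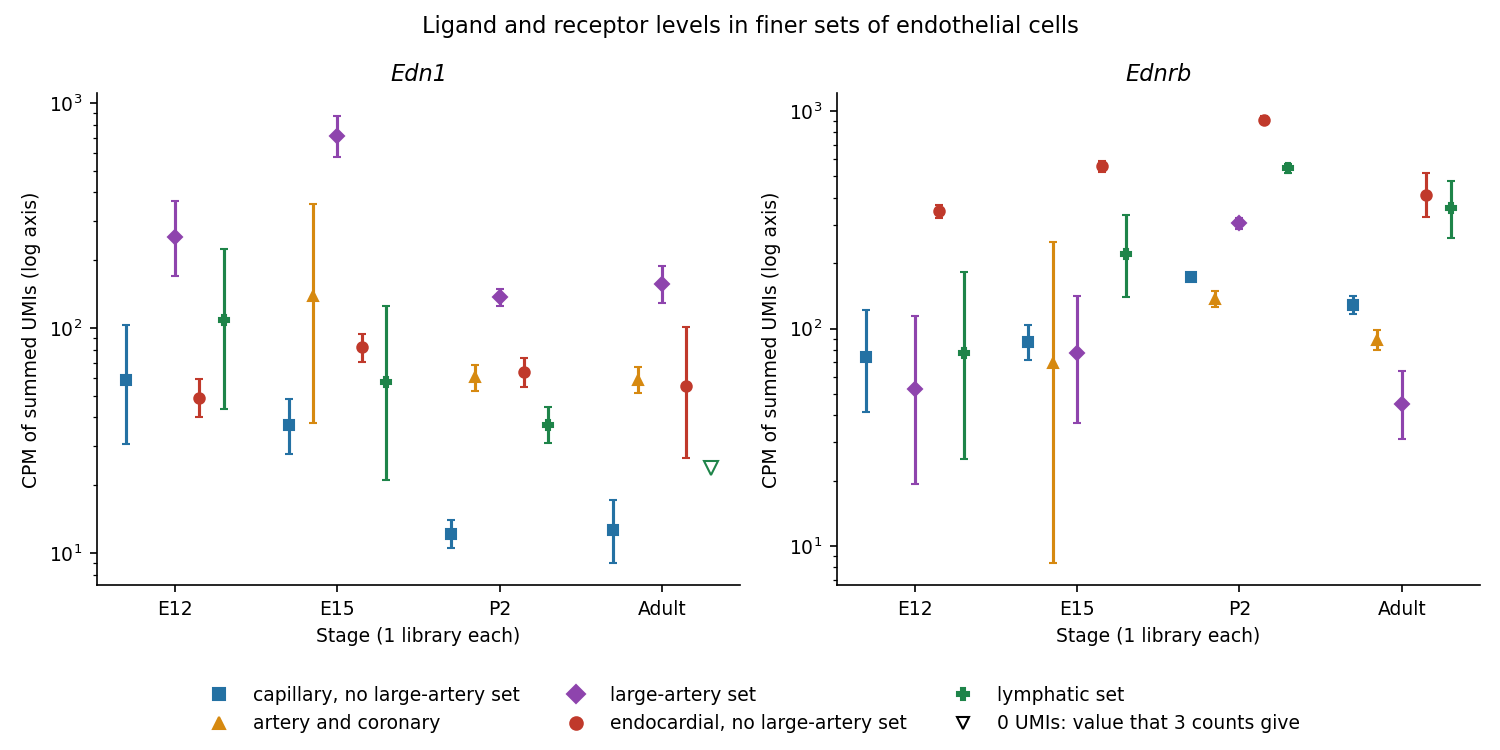
CPM of Edn1 and Ednrb (log axes) at each stage in capillary cells, artery cells of the coronary class, large-artery cells, endocardial cells without the large-artery set and cells with a lymphatic set, with exact 95% Poisson intervals. Among the sets plotted, large-artery cells hold the highest Edn1 point of each stage, 714 CPM at E15, while endocardial cells hold the highest Ednrb point, 913 CPM at P2, and the E12 artery set has no cell.

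The P2 endocardium was itself divided by the same genes. Of its 1082 cells, 467 held at least 3 UMIs of Fbln5, Eln and Gkn3, with no limit on mural and mesenchyme UMIs. Of these, 193 also met the large-artery limit of under 3 mural and mesenchyme UMIs. All 467 together had 165 CPM of Edn1 against 63.5 CPM in the other 615, a ratio of 2.59 (2.17–3.11). Ednrb was lower in them, with 587 against 913 CPM, a ratio of 0.643 (0.602–0.686). Ece1 did not differ beyond counting error, at 1.08 (0.995–1.18). The median depth of endocardial cells was 1276.5 UMIs at E12, 1003 at E15 and 4532 at P2. The fixed limit of 3 UMIs was therefore harder to reach in the embryo, where 100 cells at E12 and 50 at E15 held the set. These embryonic cells had a pattern other than that of P2. Only 4 of them at E12 and 10 at E15 also held an endothelial UMI and under 3 mural and mesenchyme UMIs. The parts of depth and of mural and mesenchyme transcripts in this pattern were not tested. The 100 and 50 cells held less Ednrb than the others, 62.4 against 345 CPM at E12 and 208 against 556 CPM at E15. Their Ece1 was also lower, at 0.436 (0.290–0.632) and 0.434 (0.252–0.699) times the level of the others. Their Edn1 did not differ beyond counting error, at 0.588 (0.211–1.32) and 1.33 (0.652–2.43), and Ednra was higher, at 14.5 (2.45–98.9) from 4 and 3 UMIs and 17.4 (4.97–57.2) from 6 and 8 UMIs. Compared without any large-artery set on either side, endocardial cells still had more Edn1 than capillary cells, by 2.21 (1.62–3.07) at E15 and 5.23 (4.24–6.44) at P2, with 4.36 (1.94–8.86) in the adult, but not detectably at E12, where the ratio was 0.831 (0.457–1.66). In the adult this differs from the comparison of the whole classes given above, where the interval included 1. Cells with a valve set (Cldn11, Enpp2, Pthlh and Wnt4, at least 2 UMIs) had less Edn1 than other endocardial cells at P2, 0.728 (0.572–0.917), while the Ednrb ratio was 0.973 (0.897–1.05). At E12 the Ednrb ratio was 0.0811 (0.00205–0.453), from 1 UMI in 22 valve-set cells, and at E15 0.660 (0.376–1.08).

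Edn1 was lower in dividing cells at E15 and P2. Coronary cells with at least 2 UMIs of Top2a, Mki67, Ccnb1 and Ube2c had 10.1 CPM of Edn1 at P2, against 44.7 CPM in the other coronary cells, a ratio of 0.226 (0.170–0.296). The E15 ratio was 0.331 (0.129–0.712), and in endocardial cells it was 0.50 (0.246–0.915) at E15 and 0.255 (0.102–0.528) at P2. At E12 and in the adult the intervals of the coronary ratio included 1, with 2 and 1 Edn1 UMIs in dividing cells, and so did that of E12 endocardial cells, 0.661 (0.370–1.11), with 17. The receptor Ednrb was also lower in dividing coronary cells at P2, at 0.680 (0.628–0.736) times the level of the others, and in dividing endocardial cells at E12, E15 and P2, at 0.611 (0.494–0.749), 0.621 (0.495–0.772) and 0.767 (0.644–0.908). For Edn1 the reduction at P2 was larger than for Ednrb, and the interval of its coronary ratio did not overlap that of Ednrb. Ece1 was also lower in dividing coronary cells at P2, 0.616 (0.564–0.672), and in the adult, 0.635 (0.387–0.984), but not detectably at E12 and E15. In dividing endocardial cells Ece1 was lower at E12, 0.716 (0.583–0.873), while the E15 and P2 intervals included 1.

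Immediate-early genes, which respond to cell handling as well as to signals, were higher in the coronary cells of the postnatal libraries. Cells in which Fos, Fosb, Jun, Junb, Egr1 and Atf3 held over 1% of the UMIs made up 11.2% of coronary cells at P2 and 14.9% in the adult, against 0.0797% at E15. Of endocardial cells 2.31% were over 1% at P2, against 0.331% at E15, and none of the 75 in the adult. P2 coronary cells over 1% had 48.3 CPM of Edn1 and the others 35.2 CPM. In P2 endocardial cells the values were 227 and 108 CPM, the first from 25 UMIs in 5 of 25 cells. In adult coronary cells the intervals overlapped, with 45.5 CPM (34.9–58.3) and 37.8 CPM (32.9–43.1), and in adult artery cells likewise, with 55.3 CPM (39.5–75.4) and 57.4 CPM (49.2–66.5). Without these cells the P2 endocardial over coronary ratio of Edn1 was 3.08.

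Ece1, which encodes the enzyme that releases the active peptide, was higher in endocardial than in coronary cells at every stage. Its endocardial level was 304 CPM (283–327) at E12, 378 CPM (354–403) at E15 and 426 CPM (409–444) at P2, with 589 CPM (489.6–703) in the adult. Coronary cells held 90.6 CPM (56.8–137), 98.2 CPM (83.8–114), 160.4 CPM (155–166) and 231 CPM (220.5–243). No interval of one class overlapped that of the other at any stage. The endocardial over coronary ratio was 3.36 (2.2–5.39), 3.85 (3.26–4.57), 2.66 (2.52–2.80) and 2.55 (2.1–3.06), so it passed 2-fold in all 4 libraries, as 21.9%, 12.4%, 10.4% and 13.9% of the genes tested did in them. The ratio of artery to all coronary cells had intervals that included 1, with 0.967 (0.887–1.05) at P2 and 0.982 (0.904–1.07) in the adult, and 1.37 (0.839–2.32) and 1.12 (0.568–2.01) in the Cxcl12 and Glul class of the embryo. Between artery cells of the coronary class and the coronary cells outside it, Ece1 was slightly lower at P2, at 0.881 (0.803–0.966), and in the adult the ratio was 0.976 (0.885–1.08). The geometric mean of the 4 ratios to all coronary cells was 1.10 (0.908–1.33). Its E12 and E15 ratios came from the Cxcl12 and Glul class, so it does not describe artery cells alone. The mean moved to 1.68 (1.11–2.56) with class rules stricter by 1 UMI.

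Ednrb, the B receptor gene, had higher endocardial over coronary ratios than Edn1 and Ece1 in each library. Endocardial cells held 321 CPM (299–345) at E12, 542 CPM (513–572) at E15 and 760.4 CPM (737–785) at P2, with 393 CPM (312–488) in the adult. Coronary cells held 70.0 CPM (40.8–112), 85.1 CPM (71.7–100.3), 184 CPM (179–190.0) and 104 CPM (96.3–111). Every endocardial level was above every coronary level, whatever the stages compared, and no interval of a coronary value reached an endocardial one. The ratio was 4.59 (2.85–7.92) at E12, 6.36 (5.35–7.62) at E15 and 4.12 (3.95–4.31) at P2, with 3.79 (2.98–4.77) in the adult. At E15 1.11% of the genes tested had a higher ratio, and at E12, P2 and in the adult 7.15%, 2.27% and 4.48%. The interval lay apart from that of Ece1 at E15 and P2 and overlapped it at E12 and in the adult. The geometric mean of the 4 ratios was 4.62 (4.02–5.32), between 4.16 and 4.94 when 1 library was left out.

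**Figure D3:**
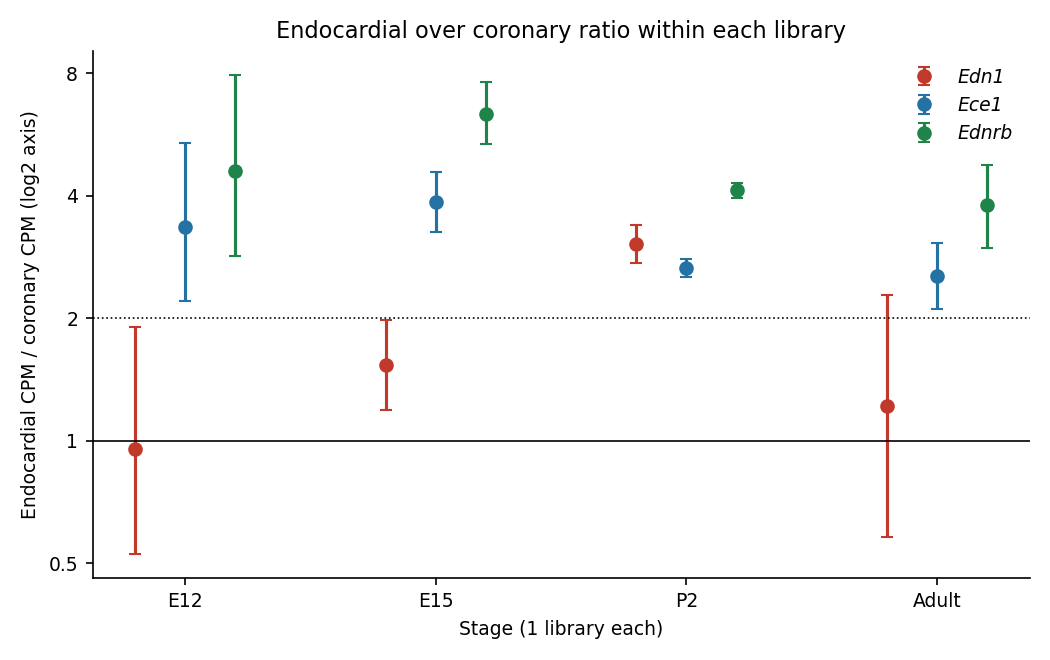
Ratio of endocardial to coronary CPM (log2 axis) of Edn1, Ece1 and Ednrb within each library, with exact 95% intervals, a solid line at 1 and a dotted line at 2. Ece1 and Ednrb lie above 2 in all 4 libraries, while Edn1 passes 2 at P2 (3.04) and its intervals at E12 and in the adult include 1.

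The share of cells with an Ednrb UMI gave the same order of classes once depth was evened out. With each cell thinned to 500 UMIs, the share was 15.4%, 24.1%, 29.4% and 13.3% of endocardial cells from E12 to the adult, against 4.42%, 3.45%, 7.79% and 4.46% of coronary cells. Unthinned, the endocardial shares were 31.2%, 41.0%, 80.3% and 56.0% and the coronary shares 13.3%, 9.01%, 41.6% and 13.7%. Thinning left out 17 endocardial cells at E12, and 100 endocardial and 66 coronary cells at E15. For Edn1 the thinned shares were 2.06%, 4.12%, 5.36% and 4.0% of endocardial and 2.65%, 2.44%, 1.61% and 1.62% of coronary cells, against unthinned 4.84%, 7.38%, 21.0% and 6.67% and 7.96%, 5.10%, 9.05% and 4.44%. Free RNA may add to such shares, which was not tested. Of cells with a mesenchyme set and no endothelial UMI, 2.29% at E12 and 4.79% at E15 held an Ednrb UMI, at a median of 1416 and 1279 UMIs a cell, against 1997 and 1169.5 in coronary cells. Their Ednrb levels of 17.4 and 41.7 CPM were below the coronary levels. E12 barcodes with under 100 UMIs, in contrast, held 199 CPM of Ednrb, above the E12 coronary level.

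Ednrb was also found in cells with a lymphatic set (Prox1, Lyve1, Mmrn1 and Ccl21a, at least 2 UMIs, with an endothelial UMI). These 33, 72, 524 and 38 cells held 77.6, 221, 546 and 358 CPM of Ednrb. Their ratio to coronary cells outside the artery class was 1.13 (0.323–3.22) at E12 and 2.59 (1.59–4.07) at E15. It was 2.82 (2.66–2.98) at P2 and 2.91 (2.09–3.97) in the adult. Ece1 showed the same, at 2.09 (1.95–2.24) at P2 and 2.28 (1.75–2.92) in the adult. Edn1 did not, with 1.16 (0.941–1.41) at P2. In the 38 adult cells it had no UMI, and the interval of its ratio (0–1.55) included 1. The E12 and E15 intervals of Edn1, 0.701–5.79 and 0.417–2.68, included 1 as well. Cells of the lymphatic set could be endocardial or coronary by the class rule. They were not taken out of the coronary side, so the same cells can stand on both sides of these ratios.

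Ednra, the A receptor gene, was scarce in endothelial cells and was counted mostly in cells that carry mural or mesenchyme markers. In endocardial cells 7, 14, 3 and 0 UMIs were counted from E12 to the adult, or 2.83 CPM (1.14–5.83), 5.72 CPM (3.13–9.60) and 0.579 CPM (0.119–1.69), while a count of 0 in the adult allows up to 14.4 CPM by 3 counts. Coronary cells had 1, 4, 15 and 11 UMIs, or 4.12, 2.38, 0.634 and 1.53 CPM. Non-endothelial cells had 12.8 CPM (9.58–16.7), 15.6 CPM (10.7–22.1), 89.6 CPM (32.9–195) and 15.6 CPM (4.24–39.8). Their ratio to coronary cells was 3.11 (0.534–125), 6.57 (2.33–25.6), 141 (44.9–385) and 10.2 (2.36–34.3), above 1 beyond counting error at every stage except E12. After birth the same cells stood on both sides: both P2 and all 4 adult non-endothelial cells with an Ednra UMI were coronary cells too. With the classes made exclusive, 2 cells at P2 and 26 in the adult were left as non-endothelial, with no Ednra UMI, and no such ratio could be had. The geometric mean, which cannot be formed with exclusive classes, was 13.1 (6.69–25.6), and 5.92 (2.56–13.7) without P2, where 6 UMIs came from 2 of 13 cells, all also counted as coronary, or 21.1 (11.5–38.7) without E12.

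The cells with an Ednra UMI numbered 77, 48, 15 and 8 from E12 to the adult. Of these, 51, 37, 13 and 8 held a mural set (at least 2 UMIs of Rgs5, Pdgfrb, Kcnj8, Abcc9 and Notch3) or a mesenchyme set (at least 3 UMIs of the 5 genes above), that is 66.2%, 77.1%, 86.7% and 100%, against 33.3%, 16.3%, 21.1% and 4.71% of all cells. All 8 adult cells were coronary by the class rule, and 7 of them held the mural set. At P2, Ednra read 231 CPM in 6 cells with a mural set and no endothelial UMI, where Ednrb and Edn1 had no UMI. In the Cxcl12 and Glul class, whose mesenchyme markers were high, Ednra read 33.7 CPM at E12 and 55.1 CPM at E15, and Ednrb 26.6 and 64.3 CPM. At P2 and in the adult, where that class was endothelial, 1 and 6 Ednra UMIs were counted.

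**Figure D4:**
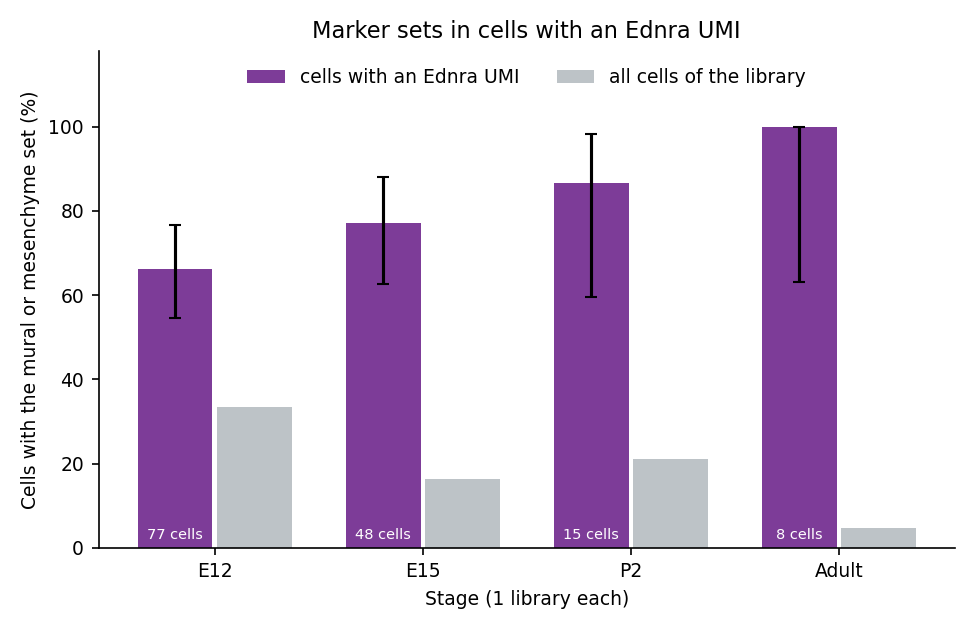
Share of cells (%) with the mural or the mesenchyme marker set at each stage, among cells with an Ednra UMI (purple, with exact 95% binomial intervals and the number of cells) and among all cells of the library (grey). The purple bars stand at 66.2% to 100% and the grey bars at 4.71% to 33.3%.

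Ednrb and Ece1 were higher in the embryonic non-endothelial cells that lacked mesenchyme markers. Endocardial cells were not taken out of this class, in which 596 cells at E12 and 545 at E15 were also endocardial. Without cells of the other classes its Ednrb read 64.2 CPM at E12 and 148 CPM at E15, against 91.5 and 237 CPM with them. At these stages, cells without an endothelial UMI that held none of the mural, mesenchyme, epicardial, immune, erythroid and cardiomyocyte sets had 211 CPM of Ednrb at E12 and 423 CPM at E15, and 203 and 315 CPM of Ece1. Those with the mesenchyme set had 74.9 and 62.1 CPM of Ece1, and 17.4 and 41.7 CPM of Ednrb. For Edn1 the levels without and with these sets overlapped in their intervals at E12, 52.1 and 36.6 CPM, and stood apart at E15, 103 and 13.9 CPM. The whole non-endothelial class had Ednrb and Ece1 levels above the coronary ones at E15, at 2.78 (2.30–3.37) and 1.93 (1.61–2.33), and levels below them in the adult, at 0.375 (0.179–0.694) and 0.487 (0.325–0.703). Free RNA was measured in 156803 E12 barcodes with under 100 UMIs, which held 37.1 CPM of Edn1, 229 of Ece1, 9.61 of Ednra and 199 of Ednrb. Coronary cells at E12 lay below these values for Ece1 and Ednrb, and endocardial cells above them, whereas the Edn1 intervals of both classes overlapped that of the empty barcodes.

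Ligand and receptor were next compared cell by cell. In endocardial cells with an Edn1 UMI, Ednrb was lower than in the other endocardial cells, at 471 against 853 CPM at P2, a ratio of 0.552 (0.505–0.603). The ratio was 0.685 (0.471–0.966) at E12 and 0.695 (0.547–0.873) at E15. For coronary cells it came to 0.751 (0.670–0.839) at P2 and 0.516 (0.325–0.781) in the adult. The adult endocardial value, from 5 cells with Edn1, was 0.329 (0.0392–1.23), and the E15 coronary value 1.45 (0.732–2.63). Ece1 did not show this. In P2 coronary cells with an Edn1 UMI it was higher, 257 against 149.6 CPM, a ratio of 1.72 (1.57–1.87), and in P2 endocardial cells the ratio was 1.08 (0.982–1.19). Between Ece1 and Ednrb the relation varied. Coronary cells with an Ece1 UMI had 2.72 (1.88–3.89) times the Ednrb level of the others at E15 and 1.49 (1.40–1.58) times at P2, but 1.15 (0.988–1.33) times in the adult. In endocardial cells the ratio was 1.36 (1.18–1.57) at E12 and 1.16 (1.04–1.29) at E15, and below 1 at P2, 0.898 (0.829–0.974). The median depth of P2 endocardial cells was 5342 UMIs with Edn1 and 4403 without. Cells of 1 library are not replicates, and these intervals cover counting error alone.

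Levels of the members between stages set 1 library against another. From E12 to P2, endocardial Edn1 and Ednrb were higher, with P2 over E12 ratios of 2.35 (1.92–2.89) and 2.37 (2.19–2.56), where 18.8% of the genes tested were at least 2-fold higher at P2. From P2 to the adult they read 0.432 (0.206–0.80) and 0.517 (0.410–0.643) times the P2 level, and Edn1 passed 2-fold, as 19.8% of genes did in that direction. Ece1 did not follow them and was higher at each later stage, with endocardial ratios of 1.24 (1.13–1.37) from E12 to E15, 1.13 (1.04–1.22) from E15 to P2 and 1.38 (1.14–1.66) from P2 to the adult. In coronary cells Ednrb was at P2 2.64 (1.64–4.53) times its E12 level, past 2-fold like 37.1% of genes, and 0.562 (0.519–0.607) times the P2 level in the adult. Coronary Ece1 again was highest in the adult, at 1.44 (1.36–1.53) times P2. Coronary Edn1 was lower at P2 than at E15, at 0.674 (0.542–0.846), and did not differ detectably between P2 and the adult, with a ratio of 1.07 (0.936–1.23). Ednra passed 2-fold in coronary cells of the adult over P2 with 11 and 15 UMIs, 2.41 (1.00–5.62), as did 11.4% of genes. Changes of 2-fold were thus common between these libraries and are not particular to the members.

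Genes that work with endothelin were read against the share of all genes tested that were at least 2-fold higher in endocardial cells, 21.9%, 12.4%, 10.4% and 13.9% from E12 to the adult, and the share 2-fold lower, 5.35%, 5.63%, 11.2% and 22.5%. Of 8 processing proteases, 5, 5, 6 and 6 had at least 20 UMIs from E12 to the adult, and 3, 1, 1 and 1 of them were at least 2-fold higher in endocardial cells, Ece1 each time and Furin and Pcsk5 at E12. The E12 ratio was 6.14 (1.66–51.2) for Furin and 2.85 (0.754–24.1) for Pcsk5, the latter with an interval that included 1. At the later stages Furin read 1.07, 1.28 and 0.803. The related enzyme gene Ece2 was not 2-fold higher at any stage, with ratios of 0.716, 0.754, 0.864 and 0.970. None was 2-fold lower at E12 and E15. At P2 and in the adult this was so of the proprotein convertase gene Pcsk6, with a ratio of 0.0837 (0.010–0.310) at P2. In the adult it had 29 coronary but no endocardial UMIs, and the interval of its ratio (0–4.67) included 1. Furin, Pcsk5 and Pcsk6 were named after their values were seen. The other ligand genes were nearly absent: Edn2 had 2, 0, 0 and 0 UMIs in endocardial and coronary cells together and Edn3 0, 3, 9 and 0. Of 17 genes of signalling below the receptors, 4, 3, 1 and 3 were higher in endocardial cells, among 14, 16, 16 and 16 tested, and 1, 2, 3 and 3 lower, counts near those shares of all genes. The genes of 2 inositol trisphosphate receptors, which release stored calcium, were among the former at 3 stages each. Itpr1 read 3.02 (1.15–11.3), 2.14, 1.91 and 2.32 from E12 to the adult. Itpr2 read 7.02 (1.91–58.5), 2.65, 2.90 and 0.715 (0.26–1.58). The E12 intervals of both were wide, and the adult interval of Itpr2 included 1. Plcb4, a phospholipase C gene, was on the coronary side, at 0.157 (0.0902–0.261), 0.233 (0.186–0.287) and 0.218 (0.0875–0.451) from E15 on, with 19 UMIs at E12. The median log2 ratio of the list was 0.62, -0.13, 0.02 and -0.27, against 0.18, 0.13, 0.08 and -0.02 over all genes tested.

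Of 9 known regulators of Edn1, all tested, 6, 4, 2 and 2 were at least 2-fold higher in endocardial cells from E12 to the adult and 0, 0, 1 and 4 lower, with a median log2 ratio of 1.29, 0.93, 0.09 and 0.01. Over all genes tested the shares were 21.9%, 12.4%, 10.4% and 13.9% higher and 5.35%, 5.63%, 11.2% and 22.5% lower. The 4 lower in the adult were Jun, Fos, Klf2 and Klf4, named after their values were seen, of which Fos and Jun belong to the immediate-early genes above. The GATA factor genes Gata4 and Gata6 were higher at all 4 stages. Gata4 reached 4.64 (1.78–17.2), 3.65 (2.44–5.63), 5.33 (4.69–6.07) and 19.4 (10.2–35.6), and Gata6 3.19 (1.66–7.04), 3.63 (2.69–4.98), 3.22 (2.93–3.53) and 6.01 (3.22–10.5). Gata4 had its largest ratio in the adult, and no relation of these factors to Edn1 was tested. Of 10 genes of other vasoactive pathways, 2, 2, 4 and 3 were higher among 8, 7, 10 and 10 tested, and 1, 1, 1 and 2 lower, against 21.9%, 12.4%, 10.4% and 13.9% of all genes higher and 5.35%, 5.63%, 11.2% and 22.5% lower (median log2 ratio 0.37, 0.26, 0.64 and 0.38). The prostacyclin synthase gene Ptgis was past 2-fold each time, at 2.55 (0.842–12.7), 2.34 (1.29–4.47), 2.51 (2.1–3.0) and 9.79 (6.25–14.9), the first with an interval that included 1, and the cyclooxygenase gene Ptgs1 was so at 3.49 (2.22–5.73), 3.35 (3.09–3.64) and 8.20 (6.36–10.5) from E15 on, with 1.10 (0.478–3.09) at E12.

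The patterns of the members over 16 values, 4 stages by 4 classes made exclusive of each other, were set beside those of 10335 genes with at least 200 UMIs, by Pearson's correlation of log2(CPM + 10). The points share libraries and depths, and the P2 non-endothelial point held 2 cells and 6597 UMIs with 0 for all 4 members, so the correlations are descriptions. Most like Ednrb were Dock6 (r = 0.942), Klhl4 (r = 0.942), Rab4a (r = 0.939), Lyl1 (r = 0.938) and Cd59a (r = 0.928), and without the non-endothelial values, over 12 values, these correlations were 0.900 to 0.934. Closest to Ece1 were Atp2b4 (r = 0.965), Atp11a (r = 0.959), Ackr3 (r = 0.952), Foxp1 (r = 0.946) and Dab2 (r = 0.937), with 0.855 to 0.940 over 12 values. Ackr3 encodes a scavenging receptor for Cxcl12, and Foxp1 a forkhead transcription factor. For Edn1 the nearest genes were Pigx (r = 0.936), Zdhhc12 (r = 0.930), Prmt2 (r = 0.921), Crlf3 (r = 0.915) and Pigs (r = 0.904), and these were 0.535 to 0.702 over 12 values. Ednra, with 130 UMIs in all, was most like Gm15050 (r = 0.973), Mtus2 (r = 0.95), Flrt3 (r = 0.944), Smim3 (r = 0.908) and C1qtnf4 (r = 0.905), with 0.928 to 0.981 over 12 values.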

How the data were processed

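Single-cell libraries of 4 developmental stages, 1 per stage, were read as the unnormalised UMI counts per gene and barcode that the authors deposited. Per the submitters' processing notes the counts were made with Cell Ranger 2.2 on mm10. The E12 matrix held all barcodes and those with at least 452 UMIs were kept, while the other matrices were used as deposited. Whether the counting used strand is not given in the sources used here, so reads of an overlapping antisense gene cannot be told apart. Stages were assigned from the sample labels.

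UMIs were summed over the cells of a class and given as CPM with exact 95% Poisson intervals, ratios of 2 classes with exact conditional binomial intervals and shares of cells with exact binomial intervals. A count of 0 was given an upper limit of 3 counts. Geometric means weighted the 4 libraries equally. With 1 library per stage, no test across genes was made. A gene with at least 20 UMIs over both sides was called at a ratio of 2-fold or more, and the script was tested on simulated counts. The members and gene lists were chosen with earlier results of these data known. From the lists, genes past 2-fold between endocardial and coronary cells in at least 3 of the 4 stages were named, with Edn2, Edn3 and Ece2 named whatever their level, and the 5 genes nearest in pattern to each member.

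No doublet was removed in the values reported. Alternatives applied the study's limits on UMIs, genes and mitochondrial share (5569, 5880, 5721 and 4087 cells left), Scrublet scores computed anew, other class rules, other gene sets for the total, a mean over cells, a higher E12 limit of 800 UMIs and each library left out. Coronary cells without a Npr3 or Tmem108 UMI, artery cells limited to coronary cells with an endothelial UMI, and large-artery cells without the cell highest in Edn1 were alternatives chosen after seeing the data. Python 3.11.15, numpy 2.4.6, pandas 2.3.3, SciPy 1.17.1, scikit-learn 1.9.0 and matplotlib 3.10.9 were used.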

Additional observations from a re-analysis of the deposited data

Results flagged for a closer look

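Ece1 and Ednrb went opposite ways against coronary cells in the non-endothelial class of different stages, a difference between libraries that was not tested. The non-endothelial over coronary ratio of Ece1 was 1.93 (1.61 to 2.33) at E15 and 0.487 (0.325 to 0.703) in the adult. For Ednrb it was 2.78 (2.30 to 3.37) at E15, 0.0810 (0.00205 to 0.451) at P2, from 1 UMI in 13 cells, and 0.375 (0.179 to 0.694) in the adult. The class held 545 cells at E15 that were endocardial by their own markers, 0 such cells at P2 and 1 in the adult.

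The E12 barcodes with under 100 UMIs, which enter no comparison, held the members above the limit that a count of 0 allows. Edn1 read 37.1 CPM (24.4 to 53.9), Ece1 229 CPM (196 to 267), Ednra 9.61 CPM (3.86 to 19.8) and Ednrb 199 CPM (168 to 234) over 156803 barcodes and 728196 UMIs. The E12 coronary levels of Ece1 and Ednrb, 90.6 and 70.0 CPM, were below these values.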

How the results depend on the processing

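Of 56 alternative values of the 4 geometric means 48 stayed within the interval of the value given above, and of 513 alternative ratios per stage 451 did. Ednrb endocardial over coronary read 5.47 with the study's limits and Scrublet, 5.45 with classes called on thinned cells and 5.66 with coronary cells without a Npr3 or Tmem108 UMI. Edn1 read 2.01 with exclusive classes and 2.01 with stricter class rules, and 1.21 (0.899 to 1.64) without the P2 library. Ece1 artery over coronary, with the Cxcl12 and Glul class at E12 and E15, read 1.68 with stricter rules. Ednra non-endothelial over coronary read 5.92 without P2. With at least 50 UMIs the share of genes at least 2-fold lower in E12 endocardial cells was 3.46% and that of genes higher in adult artery cells 0.144%. Ednrb artery over coronary at P2 turned to 1.13 with coronary cells without a Npr3 or Tmem108 UMI, a limit not set on artery cells. Ednrb non-endothelial over coronary at P2 turned to 1.72 with thinned classes. The cause was not tested for either. Thinning moved 30 of 32 shares of cells with a member's UMI outside their interval. Some alternatives gave no mean because 1 stage had no count, namely 1 of Edn1, 2 of Ece1 and 5 of Ednra. Classes were compared within each library, so that their ratios are paired by library, and no block could be fitted between stages of 1 library each. Depth limits the P2 and adult non-endothelial, E15 artery, adult endocardial and E12 coronary values, with 1, 0, 4, 10 and 12 Edn1 UMIs.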
